A study of Mus musculus with 12 samples.

Results

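The 10 heat shock genes described here were Hspa1a, Hspa1b, Hspa8, Hsph1, Dnajb1, Hsp90aa1, Hspb1, Hspb6, Cryab and Hspd1, chosen by symbol as the stress-inducible cytosolic, small muscle and mitochondrial heat shock genes among the 53700 genes of the count table. All 10 were in the table and all 10 passed the filter on low counts. RNA had been sequenced from whole hearts of 12 male mice, 6 per genotype. The ac-WT mice were CYB5R3wt/wt and the ac-CYB5R3–KO mice CYB5R3fl/fl, and both groups carried Myh6-CreERT2 and received tamoxifen, which began at 10 to 13 weeks of age; hearts were taken on the fifth day after it. Cre was driven by the promoter of the cardiomyocyte gene Myh6, so the other cells of these whole hearts kept intact Cyb5r3, and the tamoxifen and the Cre were common to both groups. The comparison addresses whether hearts that had just lost cardiomyocyte CYB5R3, a flavoprotein reductase that passes electrons to cytochrome b5 and coenzyme Q, held different amounts of heat shock transcripts. None of the 10 genes passed the test after adjustment over all genes.

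Heat shock proteins are chaperones that bind unfolded proteins and help them refold. HSP70 proteins work in a cycle that J-domain proteins start and HSP110 proteins reset, HSP90 takes over late folding steps of kinases and receptors, and the small heat shock proteins hold aggregation-prone proteins, in muscle above all those of the sarcomere and of intermediate filaments. Under heat, oxidants or proteasome failure the factor HSF1 binds heat shock elements in promoters and raises the inducible genes steeply, whereas Hspa8, Cryab, Hspb6 and Hspd1 are abundant in resting heart muscle.

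The promoters of the members are shown first, because they differ in how many cores of the heat shock element they hold. Sequences were those of RefSeq on GRCm38.p6, read 5′ to 3′ on the strand of the gene, and 7 of the 10 members had an entry. The element core searched was GAA, any 2 bases, TTC, or TTC, any 2 bases, GAA, and capitals mark each match. Hspa1a is printed over the 250 bases before its start site (chr17:34972157-34972406, minus strand), and Hspb1 (chr5:135887779-135887848, plus strand), Hsph1 (chr5:149636337-149636406, minus strand) and Hspd1 (chr1:55088033-55088102, minus strand) over 70 bases around their matches.
Hspa1a: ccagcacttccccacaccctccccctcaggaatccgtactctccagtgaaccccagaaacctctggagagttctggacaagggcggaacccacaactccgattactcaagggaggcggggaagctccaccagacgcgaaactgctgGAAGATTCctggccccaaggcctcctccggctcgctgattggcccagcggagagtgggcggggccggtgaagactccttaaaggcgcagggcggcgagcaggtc
Hspb1: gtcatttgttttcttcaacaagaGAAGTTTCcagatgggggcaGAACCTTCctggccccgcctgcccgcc
Hsph1: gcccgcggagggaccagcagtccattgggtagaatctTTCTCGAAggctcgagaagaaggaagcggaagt
Hspd1: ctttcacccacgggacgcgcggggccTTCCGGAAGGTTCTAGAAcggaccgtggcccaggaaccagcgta

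A core was present in the promoters of 6 of the 7 members, Hspa1a, Hspa1b, Hspb1, Hsph1, Hspd1 and Hspb6, against 17.0% of the 27025 genes of the table and 15.1% of its 32851 promoters of 300 bases (250 before the start site and 50 from it on). In Hspd1, the gene of the mitochondrial chaperonin, 3 overlapping cores formed the uninterrupted run in capitals, found in the promoter of 1 of its 2 listed start sites, with first bases at -144, -139 and -134 from the start site. Hspb1 held 2 separate cores, at -117 and -97. Hsph1 held 3 per promoter, of which the printed core began at -33 from the upstream start site and the other cores lay just behind that site. In Hspb6 the core lay at -120 of 1 of its 2 start sites. Dnajb1 had no match in either of its 2 windows, which says only that these letters were not there. With 3 alternating units required, 2 of the 7 members, Hsph1 and Hspd1, held a match, against 0.662% of all genes. The Hspa1b promoter, 300 bases long, differed from that of Hspa1a at 4 positions, C44T, T47C, T249G and C276T, given with the Hspa1a base first and counted from 1 at the 5′ end, and its single core began at the same distance of -104 from the start site. A match is a description of the letters and was not tied to binding of any factor here.

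The 12 libraries held 43393183 to 53754284 counts each, and levels are given as CPM, counts relative to the size of their library after scaling by the trimmed mean of M values (TMM). Cyb5r3 itself lay at 126 ± 38.4 CPM in ac-WT and at 53.7 ± 9.07 CPM in ac-CYB5R3–KO hearts (SD, n = 6 mice each), with no overlap, a fitted log2 fold change of -1.22 ± 0.19 (SE) and an edgeR adjusted p of 0.0450. In the same edgeR fit, 18 of 17847 genes tested, or 0.101%, passed an adjusted p of 0.05. Hearts of ac-WT mice 2 and 3 stood apart, with scaling factors of 0.570 and 0.723 against 0.988 to 1.22 in the other 10 libraries, and the summed level of 12 cardiomyocyte marker genes was 61470 and 48740 CPM in them where ac-WT mice 1, 4, 5 and 6 had 27000 to 30620 CPM and the ac-CYB5R3–KO group 20010 to 33370 CPM. In those same 2 hearts the summed level of 8 fibroblast markers was 1557 and 1560 CPM, against 3767 to 7275 CPM in the other 10. Summed markers of red blood cells were 221 to 4485 CPM in ac-WT and 1322 to 12220 CPM in ac-CYB5R3–KO hearts, with 3 of 5 tested genes higher at an unadjusted p of 0.05, and those of cartilage and airway were 7.93 to 60.9 CPM and 70.7 to 140 CPM, with 4 of 6 higher. At that level 4.91% of all tested genes were higher. None of the markers was at 0 in all libraries, and the part of any of these marker differences in the heat shock values was not tested. Scaling by total counts moved the median log2 fold change of all tested genes from -0.01 to 0.26. Values under that scaling are therefore given relative to this shift, or with the shift named beside them.

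Across the 10 genes, 7 had lower and 3 higher fitted levels in ac-CYB5R3–KO hearts, with a median log2 fold change of -0.21 beside -0.01 over all genes tested. The cardiomyocyte markers were also lower on balance, with 10 of 12 below 0, 5 of 12 lower at an unadjusted edgeR p of 0.05, 0 after adjustment and a median of -0.40, and their part in the values of the members was not tested. By edgeR, 0 of 10 passed an adjusted p of 0.05, where 0.101% of all tested genes did, and their adjusted p ranged from 0.324 to 0.944. At an unadjusted p of 0.05, 1 of 10, Hspa1a, was lower, where 9.73% of all tested genes were, and 0 of 10 were higher, where 4.91% of all tested genes were. DESeq2 also called 0 of 10 after adjustment and 1 at an unadjusted p of 0.05, and limma-voom called 0 under either rule. These unadjusted calls moved with the fit. Hspa1a kept its call under 10 of the 21 alternatives and lost it under 11, among them total counts, the replicate block, 1 surrogate variable and the fit without ac-WT mouse 2. Hsp90aa1 was higher at that level under 4, which were total counts, the replicate block, the fit without ac-WT mouse 2 and the fit without ac-WT mice 2 and 3. The p with total counts tests against 0 and so carries the shift of 0.26 of all genes. Relative to that shift Hspa1a was at -0.715 and Hsp90aa1 at 0.30. Dnajb1 and Hspa1b were also lower at that level without ac-WT mouse 3, and Hspb6 without ac-WT mouse 5. The CPM ranges of the groups overlapped for all 10 members, whereas 1.55% of tested genes had ranges that did not overlap. The two-sided exact permutation tests of mean CPM gave p from 0.0519 to 0.870 over the members. Without ac-WT mice 2 and 3 the median of the members was -0.03 beside 0.02 over all genes, and 7 of the 10 were still below 0. With total counts 4 of the 10 were below 0, and 6 were below the median of all genes, with a median of -0.15 relative to it. In whole hearts, fewer cells of a type and less RNA per cell cannot be told apart.

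**Figure D1:**
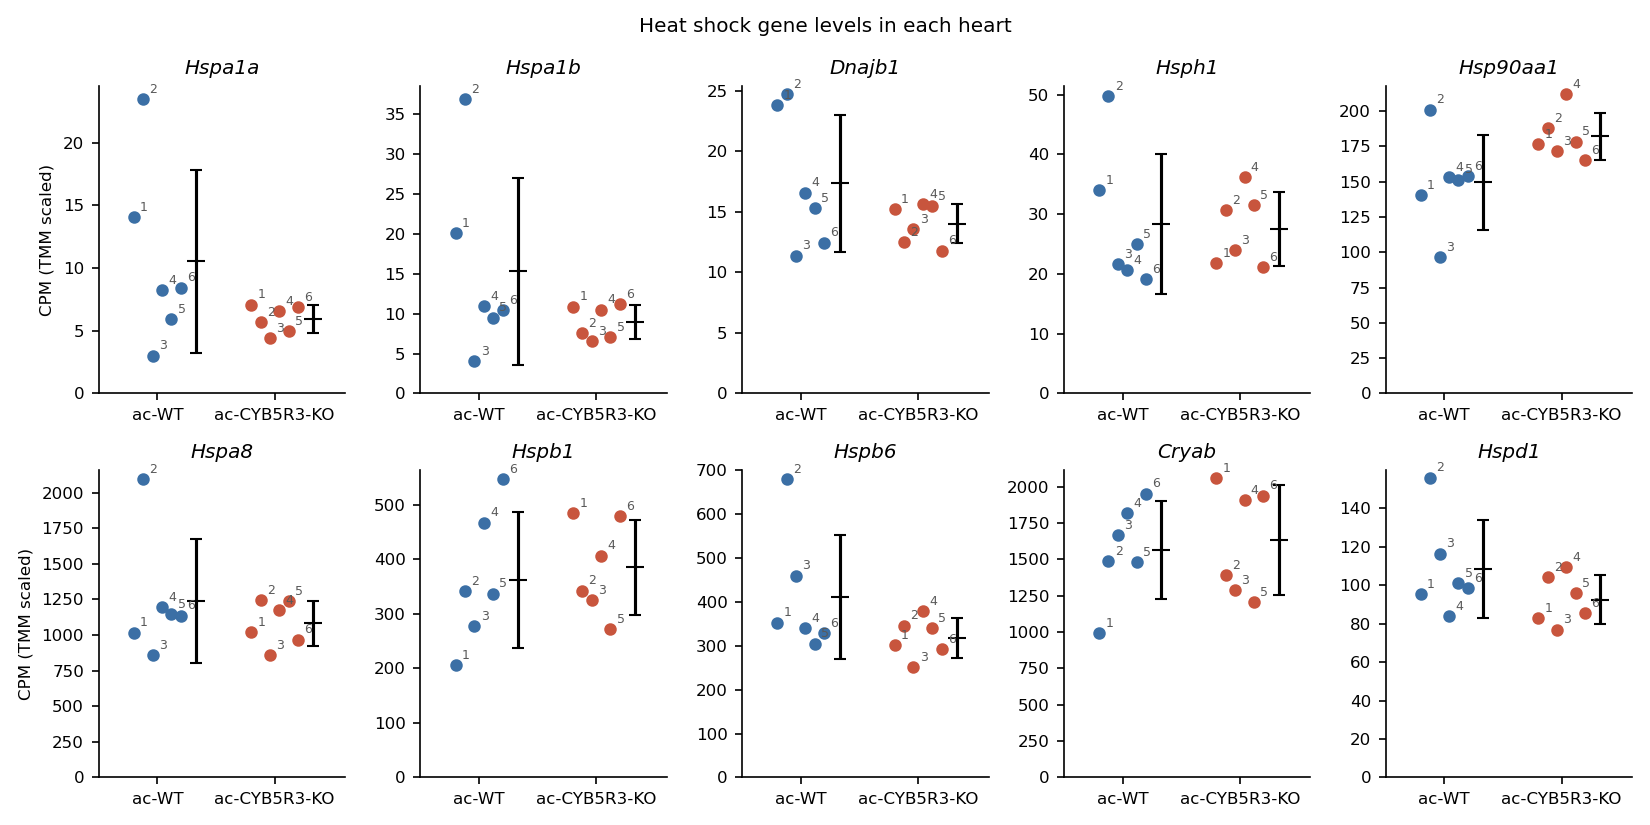
Level of each heat shock gene (CPM, y axis, from 0) in each of the 12 hearts, by genotype (x axis). Points are hearts, numbered by mouse, and the black bar is the mean with its SD (n = 6). The groups overlap in every panel, and ac-WT mouse 2 is the highest ac-WT heart for 8 of the 10 genes.

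Hspa1a and Hspa1b encode the inducible cytosolic HSP70. Hspa1a (ENSMUSG00000091971, chr17:35106144-35109069 of NCBIM37, minus strand) was measured at 14.0, 23.5, 3.02, 8.26, 5.94 and 8.44 CPM in the hearts of ac-WT mice 1 to 6 and at 7.10, 5.71, 4.398, 6.59, 4.999 and 6.86 CPM in those of ac-CYB5R3–KO mice 1 to 6. The ac-WT hearts thus spanned a 7.77-fold range and enclosed the whole ac-CYB5R3–KO range, which spanned 1.61-fold. All 6 ac-CYB5R3–KO hearts lay below the ac-WT median of 8.35 CPM. The log2 fold change was -0.82 ± 0.37 (SE), with a 95% interval from -1.61 to -0.03, an unadjusted p of 0.0429 and an adjusted p of 0.324 by edgeR, and from 0.220 to 0.849 over the alternatives. The two-sided exact permutation test of the mean CPM gave p = 0.156. Without ac-WT mouse 2 the log2 fold change was -0.42 (adjusted p = 0.646 by edgeR), and without ac-WT mice 2 and 3 it was -0.61 (adjusted p = 0.471 by edgeR).

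Hspa1b (ENSMUSG00000090877, chr17:35093381-35096183, minus strand), the neighbouring copy, was measured at 20.1, 36.9, 4.08, 10.97, 9.52 and 10.4 CPM in ac-WT mice 1 to 6, and at 6.60 to 11.2 CPM, median 9.02, in ac-CYB5R3–KO hearts. The same heart, ac-WT mouse 2, was highest for both copies, and ac-WT mouse 3 was lowest for both. Its fitted log2 fold change was -0.77 ± 0.40 (SE; adjusted p = 0.389 by edgeR), and without ac-WT mouse 2 it was -0.29. Of the 75-base windows of the Hspa1a transcript, 54.8% occurred elsewhere in the genome, and 1518 of these 1563 windows were in Hspa1b, so a read within them cannot be given to one copy. The counts of both genes added gave 25.9 ± 19.1 CPM in ac-WT and 14.9 ± 3.16 CPM in ac-CYB5R3–KO hearts (SD, n = 6), which gave a log2 difference of -0.79 ± 0.38 (SE; adjusted p = 0.357 by edgeR) and of -0.34 without ac-WT mouse 2. A predicted gene, Gm20481, lies over Hspa1a on the other strand, and the strand setting of the counting is not given in the sources used here.

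Dnajb1 encodes the J-domain protein that hands substrates to HSP70, and Hsph1 the HSP110 exchange factor that releases them. Dnajb1 (ENSMUSG00000005483, chr8:86132074-86135801, plus strand) ranged from 11.4 to 24.7 CPM with a median of 15.95 in ac-WT, against 11.8 to 15.6 CPM (median 14.4) in the ac-CYB5R3–KO group. All 6 ac-CYB5R3–KO hearts lay below the ac-WT median, and ac-WT mice 1 and 2, at 23.8 and 24.7 CPM, were above every other heart. Its log2 fold change was -0.31 ± 0.18 (SE), with an interval from -0.70 to 0.09 and an edgeR adjusted p of 0.456. It was -0.20 without ac-WT mouse 1, -0.17 without mouse 2 and -0.40 without mouse 3, with edgeR adjusted p of 0.606, 0.745 and 0.440. Hsph1 (ENSMUSG00000029657, chr5:150416862-150438951, minus strand) ranged from 19.1 to 49.8 CPM, median 23.3, in ac-WT against 21.1 to 36.3 CPM (median 27.3) in the ac-CYB5R3–KO group. Here the 2 highest ac-WT hearts were again mice 2 and 1. The log2 fold change of Hsph1 was -0.04 ± 0.23 (SE; adjusted p = 0.944 by edgeR), and the interval from -0.54 to 0.45 corresponds to 0.688-fold to 1.37-fold.

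Hsp90aa1 (ENSMUSG00000021270, chr12:111928815-111940938, minus strand), the stress-inducible HSP90 alpha, was the member with the highest log2 fold change in ac-CYB5R3–KO hearts. It was measured at 140, 201, 96.6, 154, 152 and 154 CPM in ac-WT mice 1 to 6 and at 177, 188, 172, 212, 179 and 166 CPM in ac-CYB5R3–KO mice 1 to 6. Only ac-WT mouse 2 reached the ac-CYB5R3–KO range, and all 6 ac-CYB5R3–KO hearts were above the ac-WT median of 152 CPM. The log2 fold change was 0.29 ± 0.15 (SE), with an interval from -0.03 to 0.60, an unadjusted p of 0.0701 and an adjusted p of 0.381 by edgeR. The two-sided exact permutation test gave p = 0.0519, where the smallest value that 6 against 6 mice allow is 0.00216. Leaving out ac-WT mouse 2 gave 0.40 (adjusted p = 0.297 by edgeR), and leaving out ac-WT mice 2 and 3 gave 0.30 (adjusted p = 0.390 by edgeR). Adjusted p over all alternatives ran from 0.297 to 0.745. Of its 75-base windows, 67.0% occur elsewhere in the genome.

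Hspa8 (ENSMUSG00000015656, chr9:40609067-40613283, plus strand), the constitutive HSC70 that also uncoats clathrin vesicles, ranged from 857 to 2095 CPM, median 1142, in ac-WT against 856 to 1244 CPM (median 1096) in the ac-CYB5R3–KO group. A single heart, ac-WT mouse 2, held 2095 CPM, and the next ac-WT heart held 1198 CPM. In the fit its log2 fold change was -0.20 ± 0.20 (SE; adjusted p = 0.661 by edgeR), and without ac-WT mouse 2 it was 0.03. Relative to the median of all genes it was -0.14 with total counts. The small nucleolar RNA genes Snord14c, Snord14d and Snord14e lie within Hspa8, and 69.4% of its 75-base windows occur elsewhere in the genome, so its level carries the counting rule for such reads, which is not given in the sources used here.

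**Figure D2:**
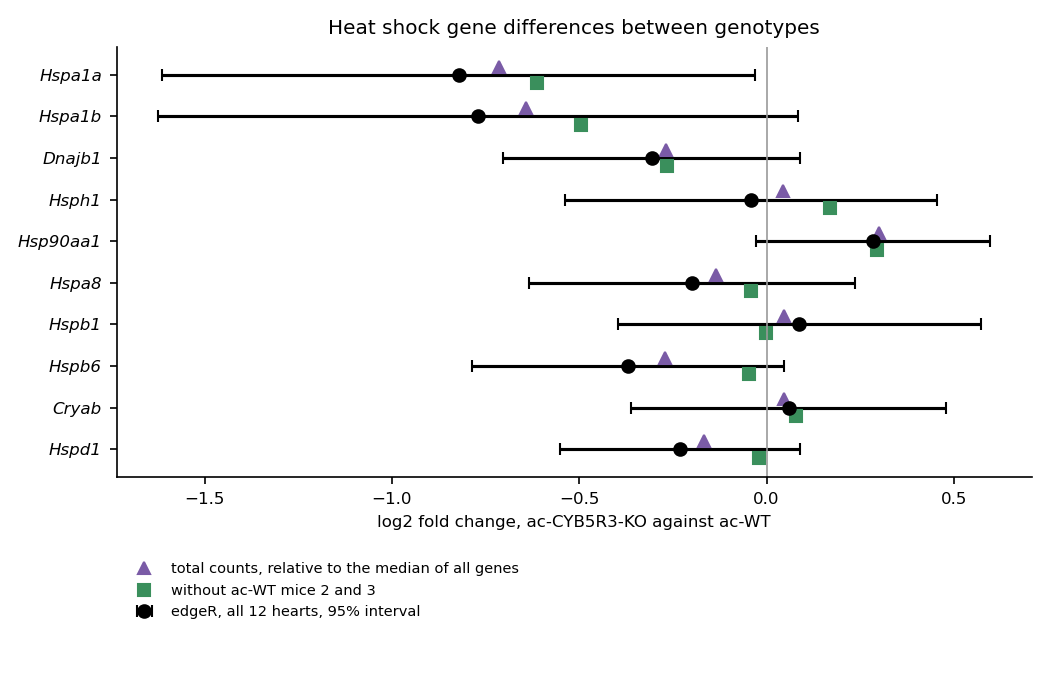
Log2 fold change of ac-CYB5R3–KO against ac-WT hearts (x axis) for each heat shock gene. Black points and bars are the edgeR value and its 95% interval over 12 hearts, triangles the value with total counts relative to the median of all genes, and squares the value without ac-WT mice 2 and 3. The interval of 1 gene, Hspa1a, does not cross 0, and the squares of Hspa8, Hspb1, Hspb6 and Hspd1 lie within 0.05 of 0.

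The small heat shock genes are muscle chaperones. Cryab, alpha B crystallin, which binds desmin and titin and was the highest member per kilobase of exon, lies at chr9:50560863-50564738 (ENSMUSG00000032060, plus strand). Its level ranged from 992 to 1953 CPM, median 1579, in ac-WT against 1208 to 2063 CPM (median 1650) in the ac-CYB5R3–KO group. The ranges covered each other almost fully, and the log2 fold change was 0.06 ± 0.20 (SE; adjusted p = 0.906 by edgeR), with an interval of 0.778-fold to 1.39-fold. Hspb1 (ENSMUSG00000004951, chr5:136363789-136365433, plus strand), which guards actin filaments, ranged from 206 to 546 CPM, median 339, in ac-WT against 272 to 485 CPM (median 374) in the ac-CYB5R3–KO group. Its log2 fold change was 0.09 ± 0.23 (SE; adjusted p = 0.877 by edgeR), with an interval of 0.760-fold to 1.49-fold. Hspb6, whose product is a target of protein kinase A in muscle (ENSMUSG00000036854, chr7:31337197-31340462, plus strand), ranged from 305 to 680 CPM, median 347, in ac-WT against 251 to 379 CPM (median 320) in the ac-CYB5R3–KO group. The 2 highest hearts for Hspb6 were ac-WT mice 2 and 3, at 680 and 460 CPM, the hearts with the highest cardiomyocyte marker sums. The log2 fold change was -0.37 ± 0.19 (SE; adjusted p = 0.394 by edgeR) with all hearts, -0.16 without mouse 2 and -0.05 without both.

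Hspd1 (ENSMUSG00000025980, chr1:55134679-55145087, minus strand), the HSP60 chaperonin of the mitochondrial matrix, ranged from 83.9 to 156 CPM, median 99.8, in ac-WT against 77.0 to 110 CPM (median 90.6) in the ac-CYB5R3–KO group. The ac-WT mice 2 and 3 were again the 2 highest hearts. Between genotypes the log2 fold change was -0.23 ± 0.15 (SE; adjusted p = 0.486 by edgeR), and it was -0.09 without ac-WT mouse 2 and -0.02 without mice 2 and 3. Its co-chaperonin gene Hspe1 starts head to head with it and overlaps it by 112 bases on the other strand.

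Per kilobase of exon, the level in ac-WT hearts was highest for Cryab, at 1320 ± 284 CPM per kb (SD, n = 6), followed by Hspb1 at 351 ± 121, Hspa8 at 299 ± 105 and Hspb6 at 179 ± 61.8 CPM per kb. Hspd1 at 41.1 ± 9.65 and Hsp90aa1 at 38.03 ± 8.50 CPM per kb came next, then Dnajb1 at 7.03 ± 2.29, Hspa1b at 5.47 ± 4.19, Hsph1 at 4.03 ± 1.67 and Hspa1a at 3.60 ± 2.50 CPM per kb. Neighbours whose ranges overlapped were Hspb1 and Hspa8, Hspa8 and Hspb6, Hspd1 and Hsp90aa1, and each pair in the order from Dnajb1 to Hspa1a. Only Cryab above Hspb1, Hspb6 above Hspd1 and Hsp90aa1 above Dnajb1 were separated in all 6 ac-WT hearts without overlap of ranges. In ac-CYB5R3–KO hearts the order differed at Hsp90aa1 and Hspd1, at 46.3 ± 4.19 and 35.0 ± 4.88 CPM per kb, whose ranges did not overlap, and at Hsph1 and Hspa1b, at 3.91 ± 0.872 and 3.20 ± 0.750 CPM per kb, whose ranges did. These orders depend on the length used. Per kilobase of the longest coding transcript instead, Hsp90aa1 was above Hspd1 in ac-WT hearts too, at 45.6 ± 10.2 and 44.8 ± 10.5 CPM per kb with overlapping ranges, Hspa8 was above Hspb1, at 519 ± 182 and 390 ± 134 CPM per kb, and Hsph1 was above Hspa1b, at 7.46 ± 3.09 and 5.47 ± 4.19 CPM per kb. Cryab stayed the highest in both groups under either length. Shared reads can move these levels: 56.1% of the 75-base windows of Hspb1 and 44.3% of those of Hspd1 occur elsewhere in the genome, and none of those of Hspb6, Hsph1, Dnajb1 and Cryab do.

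Among ac-WT hearts the members with the widest spread were Hspa1a and Hspa1b. The SD of log2(CPM + 1) among ac-WT hearts was 0.899 for Hspa1a, 0.984 for Hspa1b, 0.512 for Hsph1, 0.439 for Dnajb1 and 0.339 for Hsp90aa1, and among ac-CYB5R3–KO hearts it was 0.234, 0.310, 0.310, 0.161 and 0.125 in that order. The spread was larger among ac-WT hearts for 10 of 10 members, as it was for 78.9% of all tested genes. Centred on the mean of their own genotype, the 5 inducible genes together stood 0.41 above it in ac-WT mouse 1 and 0.94 above it in mouse 2 on the log2 scale and at -0.82 in mouse 3, whereas the 6 ac-CYB5R3–KO hearts lay between -0.20 and 0.23. The summed level of 10 immediate early genes, among them Fos and Egr1, was 1004, 1144 and 673 CPM in ac-WT mice 1 to 3. It was 366 to 519 CPM in ac-WT mice 4 to 6, and 289 to 523 CPM in ac-CYB5R3–KO hearts. For 8 of these 10 genes an unadjusted edgeR p was under 0.05, all lower in ac-CYB5R3–KO hearts, and none passed adjustment. Of all tested genes, 9.73% were lower at that level. Hspa1a, Hspa1b, Dnajb1, Hsph1 and the immediate early sum were higher in ac-WT mice 1 and 2 than in the other ac-WT hearts, whereas Hsp90aa1 was at 140 CPM in mouse 1, below its ac-WT median. Among ac-WT hearts, mouse 3 came next in the immediate early sum and lowest in Hspa1a. The summed level of 9 myeloid markers was 585, 382 and 408 CPM in ac-WT mice 1 to 3. In ac-WT mice 4 to 6 that sum was 1430 to 1552 CPM, and in ac-CYB5R3–KO hearts 647 to 1078 CPM. The part of tissue handling or of cell types in these values was not tested.

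**Figure D3:**
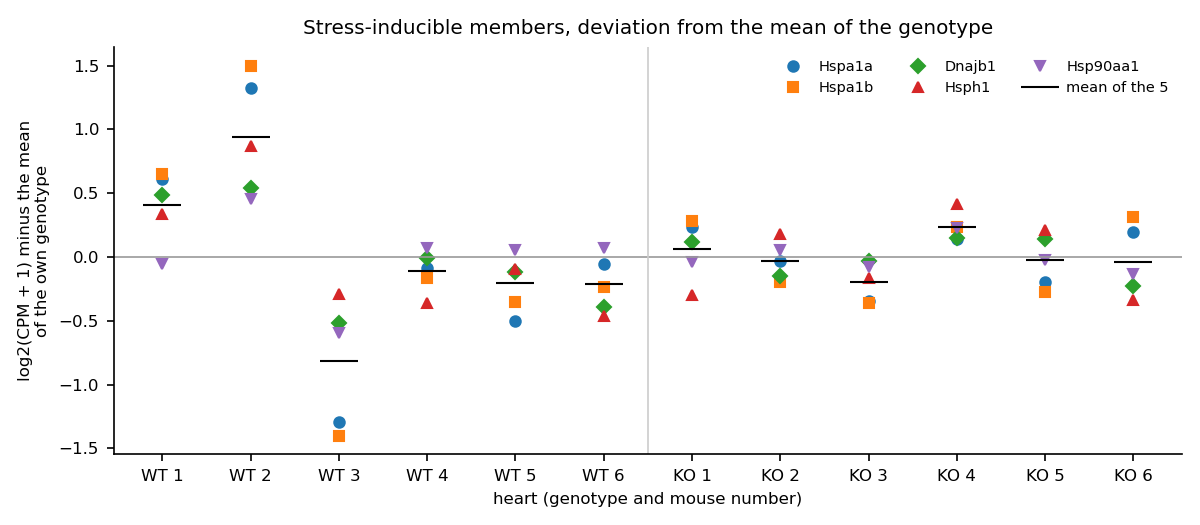
Deviation of 5 stress-inducible genes from the mean of their own genotype, as log2(CPM + 1) (y axis), in each of the 12 hearts (x axis). Symbols are genes and the black bar is the mean of the 5. The mean of the 5 lies above that of the genotype in ac-WT hearts 1 and 2 and is lowest in heart 3, while Hsp90aa1 in heart 1 is at -0.06. The ac-CYB5R3–KO hearts stay between -0.36 and 0.41 for every gene.

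Outside the list, the 5 genes whose centred pattern over the 12 hearts was most like the mean of these inducible genes, of 14433 compared, were Gm15542, Trim8, Dnaja1, Hdgf and Ptges3, with Pearson correlations of 0.928, 0.920, 0.917, 0.899 and 0.897. This is a description over hearts that share libraries and scaling, and no p was attached to it. Dnaja1 is another J-domain partner of HSP70, and Ptges3 encodes p23, a co-chaperone of HSP90. Dnaja1 was measured at 113 and 139 CPM in ac-WT mice 1 and 2, at 58.2 to 72.2 CPM in the other ac-WT hearts and at 61.3 to 78.4 CPM in ac-CYB5R3–KO hearts. For Dnaja1, as for Hspa1a, Hspa1b and Dnajb1, the hearts of ac-WT mice 1 and 2 stood above all others. Ptges3 and Hdgf did not share this. In ac-WT mouse 1 they were at 76.0 and 76.4 CPM, where ac-CYB5R3–KO hearts had 73.0 to 87.7 and 76.7 to 89.6 CPM.

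Because libraries of ac-WT mice 2 and 3 needed such different scaling, members were also set against each other within a library, where any scaling cancels. These ratios were chosen after values had been seen. Over 48 ratios, 45 between members and 3 of a member to a partner gene, 8 had a two-sided exact permutation p under 0.05 and 0 did after Benjamini-Hochberg adjustment over the 48. The 2 ratios without overlap between the groups both had Hsp90aa1 on top. The log2 ratio of Hsp90aa1 to Hspa8 was -2.86, -3.38, -3.15, -2.96, -2.92 and -2.88 in ac-WT mice 1 to 6 and -2.53, -2.72, -2.32, -2.47, -2.79 and -2.55 in ac-CYB5R3–KO mice 1 to 6. Every ac-CYB5R3–KO heart was above every ac-WT heart, with a mean difference of 0.46 (exact permutation p = 0.00216, the smallest possible, adjusted p = 0.0518). Without ac-WT mice 2 and 3 the difference was 0.35 (exact permutation p = 0.00952). As background, 7.04% of the 17769 ratios of Hsp90aa1 to another gene with counts in every library did not overlap, and 0.580% of those of Hspa8. The log2 ratio of Hsp90aa1 to Hspb6 was -1.43 ± 0.48 in ac-WT and -0.80 ± 0.14 in ac-CYB5R3–KO hearts (SD, n = 6), and its difference of 0.64 was 0.35 without ac-WT mice 2 and 3 (exact permutation p = 0.00476).

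Toward partner genes, Hsp90aa1 against Hsp90ab1, the constitutive HSP90 beta, had a log2 ratio of -1.80 ± 0.15 in ac-WT and -1.57 ± 0.10 in ac-CYB5R3–KO hearts (SD, n = 6; exact permutation p = 0.0108, adjusted p = 0.0864). The ranges overlapped, from -2.02 to -1.60 and from -1.69 to -1.45. Cryab against Hspb2, its head-to-head neighbour and a muscle small heat shock gene, stood at 5.14 ± 0.21 and 5.53 ± 0.18 (exact permutation p = 0.00433, adjusted p = 0.0520), and the highest ac-WT value, 5.36, passed the lowest ac-CYB5R3–KO value, 5.35. Hspd1 against Hspe1 stood at 0.51 ± 0.08 and 0.64 ± 0.13 (exact permutation p = 0.0649, adjusted p = 0.346). Hspb1 against Cryab had an SD of 0.0938 on the log2 scale among ac-CYB5R3–KO hearts, where Hspb1 alone had one of 0.331, and of 0.261 among ac-WT hearts, where Hspb1 alone had one of 0.506. Hspa1b against Hspa1a differed by 0.08 between genotypes (exact permutation p = 0.292).

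**Figure D4:**
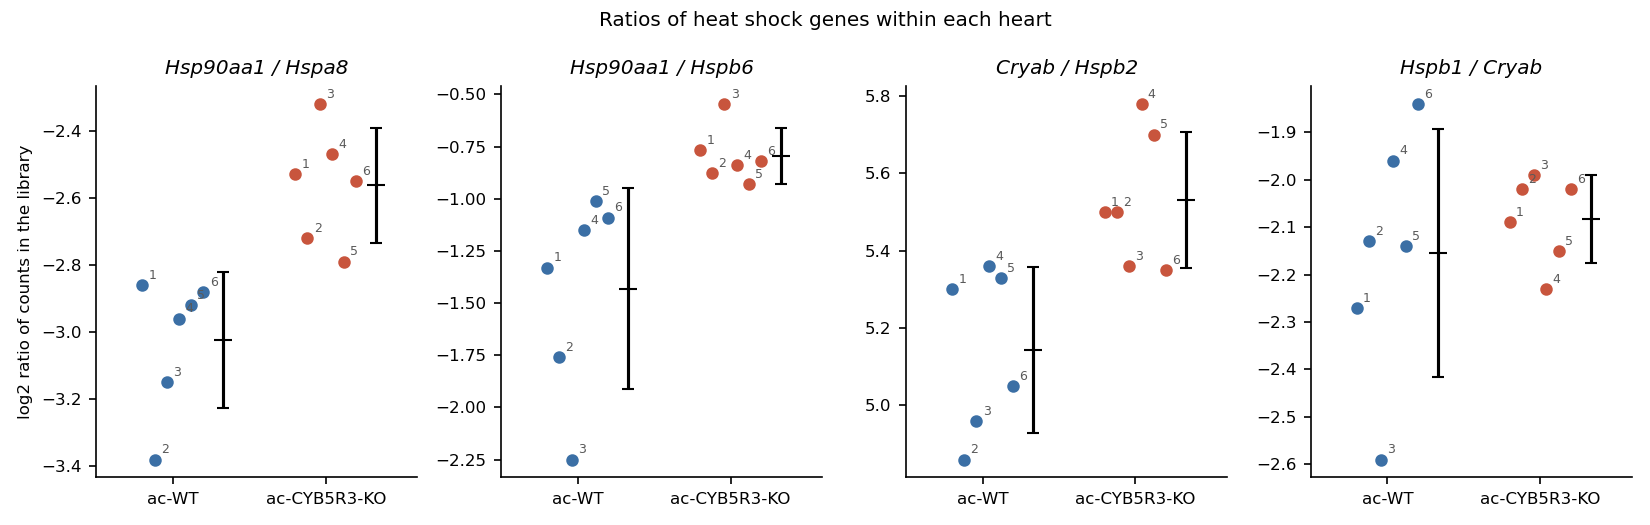
Log2 ratio of the counts of 2 genes within each library (y axis) by genotype (x axis). Points are hearts, numbered by mouse, and bars are the mean with its SD (n = 6). Hsp90aa1 to Hspa8 and Hsp90aa1 to Hspb6 do not overlap between genotypes, Cryab to Hspb2 overlaps at 5.35 to 5.36, and Hspb1 to Cryab overlaps throughout.

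The rest of the chaperone network was read from 9 further lists with 103 genes, of which 101 were tested. By edgeR, 0 passed an adjusted p of 0.05. At an unadjusted p of 0.05, 8 were lower and 3 higher, or 7.92% and 2.97%, against 9.73% and 4.91% of all tested genes, and the median log2 fold change was 0.03. DESeq2 called 451 of the same 17847 genes after adjustment. Among the 101 it called 2, Dnajc15 (-0.58 ± 0.17, SE, adjusted p = 0.0438 by DESeq2) and Hsbp1l1 (-1.09 ± 0.34, SE, adjusted p = 0.0477 by DESeq2). At an unadjusted p of 0.05 it had 12 of the 101, where limma-voom had 9 and 0 after adjustment. The share of all genes at that unadjusted level was not computed for DESeq2 and limma-voom. Beyond the gene with the smallest p in each direction of a list, Fkbp4, Unc45a, Dnajb6, Hspe1, Dnajc19 and Clpp are named because they had an unadjusted p under 0.05, seen before they were chosen.

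Among 6 heat shock factor regulators, 1 was lower at an unadjusted p of 0.05, Hsbp1l1, a relative of the HSF1 binding protein, with 1.76 ± 1.004 CPM in ac-WT and 0.822 ± 0.154 CPM in ac-CYB5R3–KO hearts (SD, n = 6; adjusted p = 0.191 by edgeR). Its log2 fold change was -1.08 with all hearts and -0.45 without ac-WT mice 2 and 3. Hsf4, a heat shock factor gene, had the smallest p among those higher, at 0.17 (adjusted p = 0.717 by edgeR) and 0.34 without those hearts. The other HSP70 and HSP110 genes, 8 in all, had none under 0.05 in either direction and a median of 0.13. Those with the smallest p were Hspa12a, at -0.50 (adjusted p = 0.352 by edgeR) and -0.13 without ac-WT mice 2 and 3, and the testis-enriched HSP70 gene Hspa2, at 0.28 (adjusted p = 0.415 by edgeR) and 0.11 without them. Among 18 HSP90 genes and co-chaperones, 3 were lower at an unadjusted p of 0.05, Fkbp4, Unc45a and Unc45b, and 0 were without ac-WT mice 2 and 3. Unc45b, the myosin chaperone of striated muscle, lay at 69.6 ± 19.9 CPM in ac-WT and 52.9 ± 4.35 CPM in ac-CYB5R3–KO hearts (SD, n = 6), with a log2 fold change of -0.40 (adjusted p = 0.276 by edgeR) that was -0.12 without ac-WT mice 2 and 3. Fkbp8, a membrane-anchored immunophilin, had the smallest p among those higher, at 0.11 (adjusted p = 0.608 by edgeR). Of 5 other small heat shock genes tested, 0 were under 0.05 by edgeR in either direction. Hspb8, a partner of BAG3, lay at 290 ± 26.8 and 313 ± 55.4 CPM (SD, n = 6; adjusted p = 0.717 by edgeR), and Hspb3 at 6.92 ± 3.30 and 4.89 ± 0.952 CPM (adjusted p = 0.396 by edgeR). The log2 fold change of Hspb3 was -0.49 with all hearts and 0.02 without ac-WT mice 2 and 3.

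Of 16 J-domain genes, 2 were higher at an unadjusted p of 0.05, Dnajb4 and Dnajb6, and 0 were without ac-WT mice 2 and 3. Dnajb4, a J-domain protein abundant in striated muscle, ranged from 43.6 to 80.8 CPM in ac-WT hearts against 65.8 to 103 CPM in the ac-CYB5R3–KO group, with a log2 difference of 0.40 ± 0.16 (SE; adjusted p = 0.272 by edgeR). Its ranges overlapped, and the value was 0.28 without ac-WT mice 2 and 3. Dnajb5 had the smallest p among those lower, at -0.30 (adjusted p = 0.431 by edgeR), and was at -0.04 without those hearts. With total counts Dnajb5 was at 0.04 before the shift of 0.26 of all genes was taken off, and so below that shift. The 10 HSP70 co-chaperones had 0 under 0.05 in either direction and a median of 0.05, with Hspbap1 at 0.24 (adjusted p = 0.399 by edgeR) and the exchange factor gene Bag1 at -0.23 (adjusted p = 0.500 by edgeR) as those with the smallest p. Bag1 was at 0.02 without ac-WT mice 2 and 3. With total counts it was at 0.11 before the shift of 0.26 of all genes was taken off, and so below that shift. In the mitochondrial list of 13 genes 4 were lower at an unadjusted p of 0.05, Hspe1, Dnajc19, Dnajc15 and Clpp, and none were higher, with a median of -0.09. Without ac-WT mice 2 and 3, 2 of the 13 were lower at that level. Dnajc15, a J-domain protein of the inner membrane, ranged from 47.6 to 94.5 CPM in ac-WT hearts against 35.1 to 46.3 CPM in the ac-CYB5R3–KO group, without overlap. Its log2 fold change was -0.57 ± 0.16 (SE; adjusted p = 0.184 by edgeR), and -0.30 without ac-WT mice 2 and 3. Lonp1, the matrix protease, lay at 76.7 ± 6.82 CPM in ac-WT and 87.0 ± 12.4 CPM in ac-CYB5R3–KO hearts (SD, n = 6; adjusted p = 0.455 by edgeR).

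Of 17 chaperones of the endoplasmic reticulum, 15 had a log2 fold change above 0, where 48.8% of all tested genes did, and their median was 0.17. Only 1, Hyou1, a chaperone of the HSP110 family, was under an unadjusted p of 0.05, at 0.24 (adjusted p = 0.328 by edgeR), and without ac-WT mice 2 and 3 the number above 0 was 12 and the median 0.04. Hspa5, which encodes BiP, lay at 287 ± 60.6 CPM in ac-WT and 267 ± 50.5 CPM in ac-CYB5R3–KO hearts (SD, n = 6; adjusted p = 0.786 by edgeR). The 8 TRiC subunits, which fold actin and tubulin, had 0 under 0.05 by edgeR in either direction and a median of 0.03, with Cct8 at 0.14 (adjusted p = 0.578 by edgeR) and Cct7 at -0.20 (adjusted p = 0.456 by edgeR) as those with the smallest p. Cct7 was at -0.08 without ac-WT mice 2 and 3. With total counts Cct7 was at 0.10 before the shift of 0.26 of all genes was taken off, and so below that shift.

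**Figure D5:**
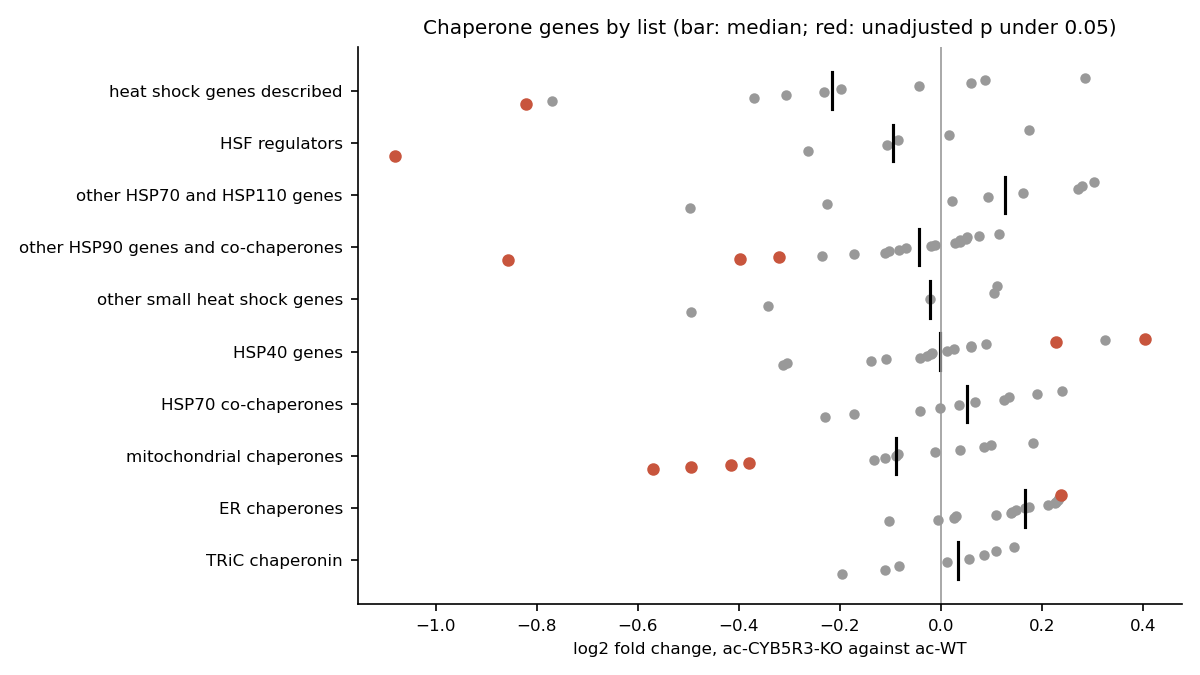
Log2 fold change of ac-CYB5R3–KO against ac-WT hearts (x axis) for every tested gene of the 10 described heat shock genes and of 9 further chaperone lists (rows). Points are genes, red where the unadjusted p was under 0.05, and the black bar is the median of the list. The 12 red points are spread over 6 of the 10 rows, 9 below 0 and 3 above.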

How the data were processed

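RNA of 12 whole hearts, 6 per genotype, was measured as whole-number counts per gene. The deposited counts were made by the authors and were neither normalized nor filtered. The study's methods name STAR and mm9, while the submitters' processing notes list STAR, featureCounts and GRCm39. The strand setting and the handling of reads with several matches are not given in the sources used here. Identifiers were matched to symbols for 31027 of 53700 genes. Positions and exon lengths were taken from GENCODE on NCBIM37 (mm9), promoters from RefSeq on GRCm38.p6, and no coordinate was converted.

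Genes were filtered with filterByExpr (minimum count 10) and tested in R 4.3.3 with the quasi-likelihood test of edgeR 4.0.16 after TMM scaling, two-sided, with Benjamini-Hochberg adjustment over 17847 genes. The members and all gene lists were chosen with earlier results of these data known. Other chaperones were named as the smallest p per list and direction, and any further names were added after values were seen. Alternatives were DESeq2 1.42.0, limma-voom (limma 3.58.1), sva 3.50.0 with 1 surrogate variable, other scalings and filters, a replicate block, and libraries left out. Exact permutation tests were two-sided over all placements of the mice. Procedures were tested on simulated data. Replicate numbers were not taken as pairs in the main fit, and the labels do not say whether they pair mice. Correlations of same-numbered deviations lay between -0.160 and 0.360, with a mean of 0.133 against -0.025 for other pairs. The genotype was the only label that separated samples; no batch was given.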

Additional observations from a re-analysis of the deposited data

Results flagged for a closer look

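The Hspa8 level of ac-WT mouse 2, 2095 CPM, lay far from the other 5 ac-WT hearts, with a gap to the next heart of 0.724 of the range of the group. It was the only such value among 28 groups of 6 hearts examined over the members, the summed pair and 3 ratios, where chance gives about 1 in 20. That library also had the smallest scaling factor, 0.570, and the cause was not tested.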

How the results depend on the processing

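No heat shock gene passed an adjusted p of 0.05 under any of 21 alternatives, and the lowest adjusted p of any member was 0.220, with DESeq2. Of 210 member values, 192 kept their direction and 18 did not. With total counts the log2 fold change was 0.12 for Hspa8, 0.30 for Hsph1 and 0.0891 for Hspd1, before the shift of 0.26 of all genes was taken off. With 1 surrogate variable it was -0.13 for Hspb1, 0.28 for Hsph1 and -0.0253 for Cryab. Hsph1 gave 0.0174 with limma-voom. Leaving out ac-WT mice 2 and 3 gave 0.17 for Hsph1 and -0.00035 for Hspb1. With single hearts left out, ranges were -0.28 to 0.0256 for Hspa8, -0.0323 to 0.24 for Hspb1, -0.13 to 0.20 for Hsph1 and -0.0435 to 0.13 for Cryab. The sum of Hspa1a and Hspa1b stayed lower and missed the threshold under all 21 alternatives, from -0.98 without ac-WT mouse 3 to -0.34 without ac-WT mouse 2. The cause of these changes was not tested.

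With the replicate number as a block, Hsph1 gave 0.0140, 0 members were called, and 2 genes in all were called; same-numbered mice correlated at 0.133 on average, and 3 of 6 ac-WT mice correlated best with their own number. Genes called in all numbered 18 with edgeR, 451 with DESeq2, 2 with limma-voom, 8 with total counts, 8 with DESeq2 size factors, 35 without a filter, 3 with 1 surrogate variable, 7 without ac-WT mice 2 and 3, and 2 to 38 with single hearts left out: 3, 2, 38 and 2 without ac-WT mice 2, 3, 4 and 5, and 2 to 9 without any 1 of the ac-CYB5R3–KO mice. DESeq2 called 2 of the other chaperones. With 3 alternating units in place of 2, promoter matches covered 2 members in place of 6. The Hsp90aa1 to Hsp90ab1 difference was 0.17 without ac-WT mice 2 and 3 (exact permutation p = 0.0571).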
